A study of Mus musculus with 24 samples.

Results

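The Hippo pathway genes and TEAD transcription factors followed here are 10 genes of the 55471 in the count tables, fixed by name and matched to their Ensembl identifiers: Yap1, Wwtr1, Tead1, Tead2, Tead4, Lats1, Lats2, Sav1, Nf2 and Amot. They were followed through 18 SLIM-seq libraries (low-input m6A immunoprecipitation) and 6 RNA-seq libraries of a Ythdc1 knockdown, all from B6D2F1 mice (C57BL/6J crossed with DBA/2N), whose females were superovulated at 8 weeks of age. SLIM-seq comprised 3 IP libraries, pulled down with an antibody to m6A, and 3 input libraries of RNA not pulled down, from MII oocytes (14 to 16 h after hCG), late 1-cell embryos (L1C, 27 to 29 h) and late 2-cell embryos (L2C, 48 to 50 h). In the knockdown experiment zygotes were injected in the cytoplasm with mRNA of the RNA-cutting nuclease Cas13d and 3 crRNAs against Ythdc1, a nuclear reader of m6A (Ythdc1 KD), or with Cas13d mRNA alone (Ctrl), and 3 libraries of each were made at L2C. The controls therefore carry the nuclease but no guide RNA. Nothing in the labels says which replicates came from separate collections, so the p-values measure the spread between these libraries, which may be technical.

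In the Hippo pathway the kinases LATS1 and LATS2, helped by the scaffold SAV1 and recruited to the membrane by NF2, phosphorylate the coactivators YAP1 and TAZ (encoded by Wwtr1) and keep them out of the nucleus. Angiomotin (Amot) binds the coactivators at cell junctions and activates LATS. Unphosphorylated coactivators pair in the nucleus with the DNA-binding TEAD proteins, and in the mouse embryo this switch, acting mainly through TEAD4, separates the outer trophectoderm from the inner cell mass at later cleavage stages.

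TEAD proteins bind the hexamer GGAATG. The promoters of the 2 coactivator genes are printed because both hold it, to show where its letters lie. The 250 bases before the start site are given 5′ to 3′ on the gene's own strand from RefSeq (GRCm38.p6), and the hexamer is in capitals.
Yap1: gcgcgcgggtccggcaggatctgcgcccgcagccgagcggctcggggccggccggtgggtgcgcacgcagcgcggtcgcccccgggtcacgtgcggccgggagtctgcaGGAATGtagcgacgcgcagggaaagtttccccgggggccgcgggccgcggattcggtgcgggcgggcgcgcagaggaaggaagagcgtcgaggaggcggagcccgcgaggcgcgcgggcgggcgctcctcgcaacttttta
Wwtr1: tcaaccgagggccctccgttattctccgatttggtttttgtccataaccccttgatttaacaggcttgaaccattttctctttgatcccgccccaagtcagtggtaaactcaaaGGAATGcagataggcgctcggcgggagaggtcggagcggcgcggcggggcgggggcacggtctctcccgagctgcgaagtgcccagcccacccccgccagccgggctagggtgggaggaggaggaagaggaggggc
The Yap1 sequence is the minus strand of chr9:8004597-8004846 and its hexamer begins 141 bases before the start. The Wwtr1 sequence is the minus strand of chr3:57575911-57576160 and its hexamer begins 136 bases before the start. Of the members, 8 had a promoter in the RefSeq table, from 250 bases before to 50 bases after the start, and 4 of them held GGAATG on either strand in at least 1 promoter (Yap1, Wwtr1, Lats2 and Sav1). Counted by promoter, 5 of their 11 held it, and of all 32851 promoters of that length, 14.7% did. The 2 Wwtr1 promoters of the table overlap and hold the same hexamer. Tead1 and Tead4 were not in the table. A match describes the letters and says nothing of binding.

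Levels in the inputs are given in CPM, the counts of a gene relative to the total of its library, scaled between libraries by TMM, and were compared between stages with the quasi-likelihood test of edgeR over 19903 genes. A change was called at an adjusted p (Benjamini-Hochberg, over all those genes) under 0.05. RNA of the coactivator and TEAD genes was higher at L2C than at L1C, whereas that of Amot was lower. These reads were counted on whole gene spans with introns, so unspliced RNA may be included. Its part in the stage changes was not tested. Lats2 was lower too, but no change was called once the reads of an overlapping gene model, Gm49361, were added to it (0.02, adjusted p = 0.94). From L1C to L2C 7 members rose and 2 fell, Lats2 among the latter, where 44.1% of all tested genes rose and 38.8% fell. Of the 10 members, 9 passed the filter on low counts, and Sav1 did not. Most tested genes changed between these stages (82.9%), so the counts alone do not set the members apart. The median log2 change of the members was 1.70 against 0.17 for all tested genes. Members and the other pathway genes were chosen with earlier results of these data known, and the part of that choice in such medians was not tested. A gene of which no library of 1 group reached the minimum of the filter (0.467 CPM in the inputs, before scaling) had passed it through other groups, and is left out of the numbers of genes given here for that comparison, as Tead4 is for those with MII. From MII to L1C 3 members rose, 3 fell and 2 were not called, against 31.9% of all tested genes that rose and 24.3% that fell. From MII to L2C 6 rose and 2 fell, against 47.5% and 37.1%, and the median was 1.19 for the members and 0.40 for all tested genes. Between bulk samples, fewer cells of a type and less RNA per cell cannot be told apart, and the levels are shares of the RNA sequenced.

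**Figure D1:**
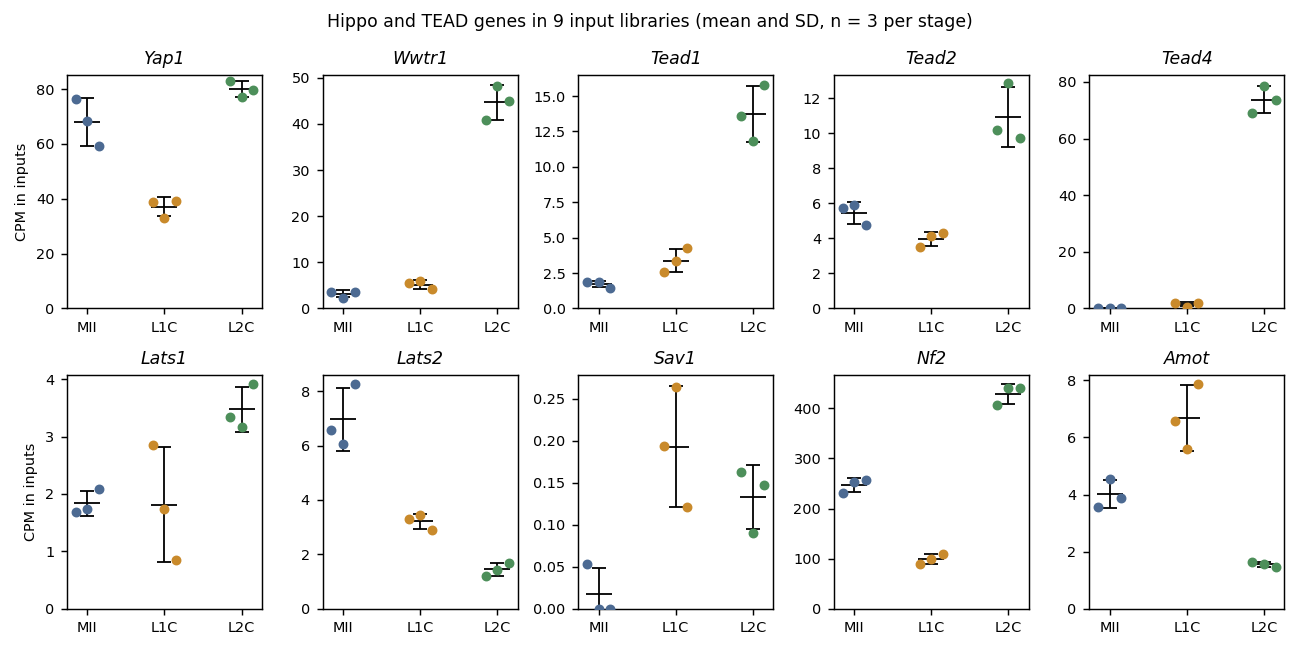
CPM of each member (y axis, from 0) in each input library at MII, L1C and L2C (x axis). Points are libraries and bars show mean and SD (n = 3). Tead4 rose from under 0.3 CPM in every MII library to between 69.0 and 78.7 CPM at L2C, while Lats2, counted without the overlapping Gm49361, and Amot were lowest at L2C.

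Tead4 (chromosome 6, 128224288 to 128300823, minus strand, GRCm38) showed the largest rise of the members. Its MII inputs held 4, 1 and 4 estimated counts, its L1C inputs 38, 13 and 31, and its L2C inputs 2109, 1745 and 3006. These are 0.211, 0.0599 and 0.268 CPM at MII, 1.84, 0.686 and 1.88 CPM at L1C, and 69.0, 78.7 and 73.7 CPM at L2C. The 3 stages did not overlap. The log2 change was 5.89 ± 0.28 (SE, adjusted p = 1e-10) from L1C to L2C. The fitted value from MII to L1C, 3.08 ± 0.49, rests on very few counts at MII, and Tead4 had passed the filter on low counts through its L1C and L2C libraries.

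Tead1 (chromosome 7, 112679318 to 112906807, plus strand) and Tead2 (chromosome 7, 45215753 to 45233644, plus strand), which bind the same DNA sequence as TEAD4, started from other levels. Tead1 was at 1.85, 1.86 and 1.47 CPM in MII, 2.57, 3.32 and 4.24 in L1C and 13.6, 11.8 and 15.8 in L2C libraries, again without overlap between stages. Its log2 change was 1.04 ± 0.25 (adjusted p = 0.0029) and then 2.27 ± 0.22 (adjusted p = 2.6e-07). Tead2 was at 5.75, 5.93 and 4.76 CPM in MII, 3.54, 4.12 and 4.30 in L1C and 10.2, 12.9 and 9.73 in L2C libraries. Tead2 differed by -0.38 ± 0.21 between L1C and MII, which was not called (adjusted p = 0.13), and rose by 1.70 ± 0.20 from L1C to L2C (adjusted p = 2e-06).

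The make-up of the TEAD messages was compared per length, because the 3 genes differ in span and exon length. Of the TPM of Tead1, Tead2 and Tead4 together, which the authors divided by the gene span with its introns, Tead4 made up 0.754% ± 0.515 (SD, n = 3) in MII, 7.42% ± 3.49 in L1C and 58.7% ± 2.04 in L2C libraries. Tead2 went the other way, from 96.9% ± 0.495 at MII through 86.9% ± 3.34 to 37.6% ± 2.80 at L2C. Dividing the estimated counts by exon length instead gave Tead4 3.84% ± 2.57, 26.8% ± 10.8 and 86.2% ± 0.302, so the size of the share depends on the length used while its order over the stages does not. In the Ctrl embryos of the knockdown experiment, whose counts come from exons only, Tead4 made up 69.6% ± 5.67 of CPM per kb of exon.

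**Figure D2:**
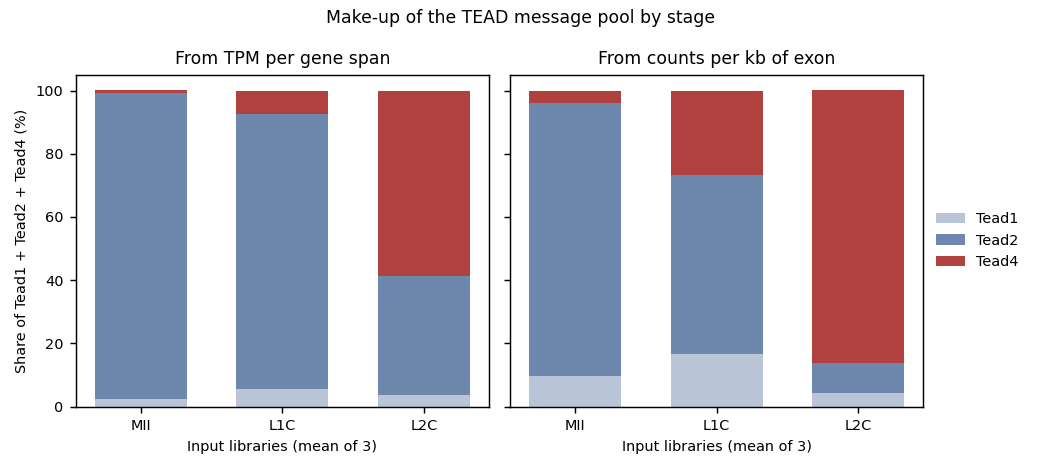
Share of the summed Tead1, Tead2 and Tead4 level (y axis, percent, means of 3 input libraries) by stage (x axis), with levels per gene span on the left and per kb of exon on the right. Tead4 goes from 0.754% to 58.7% on the left and from 3.84% to 86.2% on the right.

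The coactivators Yap1 (chromosome 9, 7931999 to 8004596, minus strand) and Wwtr1 (chromosome 3, 57455649 to 57575910, minus strand) followed different courses. Yap1 was at 76.4, 68.5 and 59.1 CPM in MII, 38.9, 33.0 and 39.1 in L1C and 82.8, 77.1 and 79.8 in L2C libraries, so the L1C libraries lay below all others. It fell by 0.79 ± 0.13 on the log2 scale to L1C (adjusted p = 0.00015) and rose by 1.35 ± 0.13 to L2C (adjusted p = 2.1e-07). Between MII and L2C its change of 0.56 ± 0.13 (adjusted p = 0.00092) lay close to the median of 0.40 over all tested genes, and it was 0.23 and not called (adjusted p = 0.10) when all 18 libraries were scaled and fitted together.

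Wwtr1 was at 3.64, 2.34 and 3.62 CPM in MII, 5.47, 5.96 and 4.12 in L1C and 40.8, 48.3 and 44.9 in L2C libraries. Its log2 change was 0.79 ± 0.21 (adjusted p = 0.0062) and then 3.34 ± 0.20 (adjusted p = 1.1e-09). Per gene span the ratio of Wwtr1 to Yap1 was 0.0280 in MII, 0.0833 in L1C and 0.336 in L2C libraries (log2 -5.16 ± 0.41, -3.59 ± 0.39 and -1.57 ± 0.17, SD, n = 3). The 3 stages did not overlap, and the log2 ratio was higher by 3.59 at L2C than at MII (two-sided exact permutation p = 0.1, the smallest that 3 libraries against 3 allow, and 0.1 after adjustment over the 12 such comparisons). Yap1 was nonetheless the more abundant coactivator per gene span in every input library, whereas per kb of exon the ratio was 0.0899 at MII and 1.08 at L2C.

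Of the kinases, Lats1 (chromosome 10, 7681214 to 7716460, plus strand) was at 1.69, 1.74 and 2.08 CPM at MII and 3.34, 3.16 and 3.92 at L2C. Its L1C libraries were scattered, at 2.86, 1.74 and 0.848 CPM, and spanned the MII range. Lats1 was not called between MII and L1C (0.09 ± 0.36, adjusted p = 0.85, and -0.39 without L1C input replicate 1), and rose by 1.16 ± 0.34 from L1C to L2C (adjusted p = 0.0055).

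Lats2 (chromosome 14, 57689662 to 57758388, minus strand) was at 6.59, 6.05 and 8.25 CPM in MII, 3.29, 3.43 and 2.91 in L1C and 1.21, 1.44 and 1.69 in L2C libraries, with no overlap between stages. It fell by 1.03 ± 0.23 (adjusted p = 0.0018) and then by 0.90 ± 0.24 (adjusted p = 0.0033) on the log2 scale. Per gene span Lats2 was 1.93 times Lats1 at MII and 0.212 times at L2C (3.95 and 0.435 times per kb of exon), and the log2 ratio of -2.24 ± 0.16 at L2C lay 3.18 below that at MII (two-sided exact permutation p = 0.1, the smallest possible).

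The second step of that fall rests on how reads were divided between 2 gene models. Gm49361, annotated as a protein-coding gene at chromosome 14, 57642077 to 57746103, shares on the same strand 56442 of the 68727 bases (82.1%) of the Lats2 span, against which these reads were counted, and 2955 of its 6971 exon bases (42.4%). In the inputs Gm49361 was given 0.133 ± 0.122 CPM in MII, 1.47 ± 0.231 in L1C and 2.55 ± 0.376 in L2C libraries (SD, n = 3). The sum of both models, in CPM scaled over all 18 libraries, was 7.10 ± 1.03 in MII, 4.68 ± 0.335 in L1C and 4.00 ± 0.461 in L2C libraries. An alternative chosen after seeing the data added the counts before the fit, in which the inputs were scaled alone. The change was then -0.51 from MII to L1C (adjusted p = 0.046), 0.02 from L1C to L2C (adjusted p = 0.94) and -0.50 from MII to L2C (adjusted p = 0.033). The lower sum in CPM at L2C than at L1C thus depends on the scaling. With the counts added, the log2 ratio to Lats1 per kb of exon differed by -1.74 between L2C and MII.

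**Figure D3:**
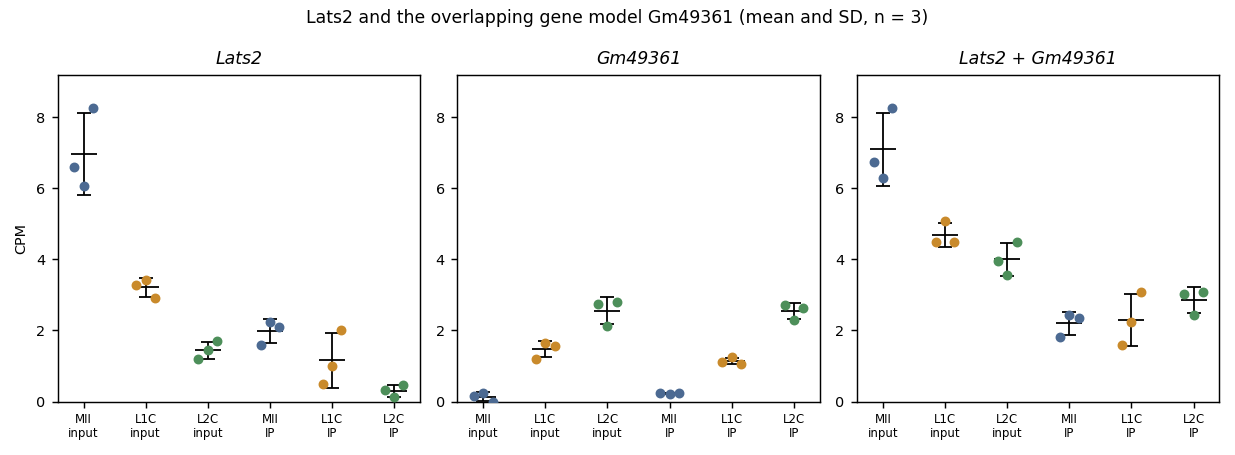
CPM (y axis) of Lats2, of the overlapping gene model Gm49361 and of their sum in input and IP libraries at each stage (x axis). Points are libraries and bars show mean and SD (n = 3). Lats2 alone falls to 1.45 CPM in the L2C inputs, while the sum is at 4.00 CPM.

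Nf2 (chromosome 11, 4765845 to 4849536, minus strand), which encodes the membrane protein Merlin, had the highest level of the members per gene span at every stage. It was at 231, 253 and 256 CPM in MII, 89.4, 100 and 110 in L1C and 406, 441 and 440 in L2C libraries. Like Yap1 it was lowest at L1C, with a fall of 1.22 ± 0.12 on the log2 scale (adjusted p = 1.5e-06) and then a rise of 2.34 ± 0.12 (adjusted p = 3.3e-10).

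Amot (chromosome X, 145446425 to 145505181, minus strand) was at 4.01 ± 0.495 CPM in MII, 6.68 ± 1.14 in L1C and 1.55 ± 0.0929 in L2C libraries (SD, n = 3). It was highest at L1C, with a rise of 0.82 ± 0.22 (adjusted p = 0.0063) and then a fall of 1.87 ± 0.23 (adjusted p = 3.2e-06) on the log2 scale. Sav1 (chromosome 12, 69965012 to 69987002, minus strand) was barely detected, with 1, 0 and 0 estimated counts in MII, 4, 5 and 2 in L1C and 5, 2 and 6 in L2C libraries, and was not tested. Of its exon bases 25.4% lie antisense to Atl1, and 21.5% of its span lies antisense to Gm3086, which had up to 275 counts in a SLIM-seq library.

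Ordered by level per gene span at L2C, Nf2 (25.3 ± 0.509 TPM, SD, n = 3) came before Yap1 (5.45 ± 0.331), Tead4 (4.77 ± 0.232), Tead2 (3.06 ± 0.468), Wwtr1 (1.83 ± 0.118), Lats1 (0.490 ± 0.0505), Tead1 (0.298 ± 0.0422), Amot (0.131 ± 0.0114), Lats2 (0.104 ± 0.0143) and Sav1 (0.0315 ± 0.00872). No neighbours in this order overlapped, although Amot (lowest 0.119) and Lats2 (highest 0.119) met. At MII Tead4 (0.0151 ± 0.00906 TPM) came second to last, and overlapped with Sav1 alone. At L1C the overlaps between neighbours ran from Lats1 (0.293 ± 0.160) through Lats2 (0.266 ± 0.0200) to Wwtr1 (0.244 ± 0.0429), and from Tead4 (0.109 ± 0.0507) through Tead1 (0.0847 ± 0.0221) to Sav1 (0.0504 ± 0.0184). Lats1 (lowest 0.14) and Tead4 (highest 0.142), which are not neighbours, also overlapped there. Per kb of exon Tead4 (20.5 ± 1.35 CPM) came second at L2C, before Wwtr1 (9.35 ± 0.782) and Yap1 (8.63 ± 0.309), which overlapped. The input levels include introns, and in the exon counts of the Ctrl embryos Yap1 came first (26.2 ± 1.07 CPM per kb of exon), then Nf2 (12.7 ± 0.484) and Tead4 (4.55 ± 0.514).

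Among 33 other genes of the pathway, 29 were tested in the inputs. Of the 22 that reached the minimum of the filter at both MII and L2C, 5 rose and 13 fell between them, with a median log2 change of -1.15, against 1.19 for the members. Of the partners of TEAD proteins in the list, Vgll1 and Vgll4 were among the 22 and both fell, and Vgll4, a repressor that competes for TEAD proteins, fell by 4.02 ± 0.21 on the log2 scale (adjusted p = 1.7e-10). Of the target genes of YAP and TEAD, 1 rose and 1 fell among 3, and Gata3, a trophectoderm factor, fell from 92.8 ± 2.81 CPM at MII to 4.63 ± 0.380 at L2C (log2 -4.00 ± 0.14 in the fit of the inputs alone, adjusted p = 5.5e-12).

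The core kinases and adaptors split, with 2 higher and 1 lower of 4. Mob1a, an activating subunit of LATS, rose from 19.8 ± 1.29 to 167 ± 26.3 CPM (log2 3.40 ± 0.15 in the fit of the inputs alone, adjusted p = 3.3e-11). Ajuba, a LIM protein that restrains LATS, rose from 0.113 ± 0.0853 CPM at MII through 1.09 ± 0.187 to 24.5 ± 4.48 at L2C (7.95 ± 0.35, on 1 to 4 counts in the MII inputs). Frmd6, an upstream regulator, rose by 5.00 ± 0.30 (adjusted p = 1.1e-09), and the kinase gene Taok3 fell by 3.40 ± 0.14 (adjusted p = 2.4e-11).

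From MII to L1C 8 of 26 rose and 10 fell, with the smallest p-values in Fat1 (1.16 ± 0.14, adjusted p = 9.7e-06) and Mob1a (0.81 ± 0.14) among those that rose and in Taok3 (-1.62 ± 0.13, adjusted p = 2.5e-07), Taok2 (-1.63 ± 0.14) and Dlg5 (-1.50 ± 0.16) among those that fell. From L1C to L2C 6 of 23 rose, with Ajuba (4.73 ± 0.25), Mob1a (2.59 ± 0.14) and Frmd6 (3.64 ± 0.27) first, and 12 fell, with Amotl1 (-4.41 ± 0.20, adjusted p = 5.9e-11), Gata3 (-2.96 ± 0.14) and Stk3 (-2.78 ± 0.17) first. Amotl1, a paralogue of Amot, thus shared its fall at L2C, from 34.6 ± 4.81 to 1.37 ± 0.229 CPM.

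The stage labels were checked with marker genes. The summed level of 6 oocyte transcripts, among them Zp3 and Gdf9, was 10400 to 11500 CPM in MII, 4680 to 4780 CPM in L1C and 458 to 497 CPM in L2C inputs. Zp3 went from 191 ± 11.5 CPM at MII through 63.3 ± 11.1 to 119 ± 9.54 at L2C, and Bmp15 and Zp2 were higher at L1C than at MII. The summed level of 6 transcripts of the 2-cell embryo, among them Zscan4d and Zfp352, was 35.5 to 43.4 CPM in MII, 193 to 226 CPM in L1C and 235 to 357 CPM in L2C inputs. The MII sum was mostly Tcstv1 (30.1 ± 3.65 CPM), which was lower at L2C (17.3 ± 1.63), and the L1C sum mostly Duxf3, at 0.441 ± 0.247 CPM in MII, 112 ± 21.0 in L1C and 6.03 ± 0.299 in L2C inputs. The 8 cumulus cell markers summed to 47.4 to 58.7 CPM in MII inputs, 32.2 to 37.8 in L1C inputs and 2.93 to 4.14 in L2C inputs, mostly from Cyp19a1 at MII and L1C, and their part in the stage differences was not tested.

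m6A is a methyl mark on adenosine in mRNA that is read by proteins which alter splicing, export, translation or decay of the message. An RNA that carries it is recovered by the antibody. IP and input were compared at each stage in a fit of all 18 libraries over 21950 genes, which held all 10 members. Sav1 reached the minimum of the filter in IP libraries and in no input, so it is described by its counts and left out of the numbers of members here, as is Tead4 at MII. At MII 1 of the other 8 was higher in the IP and 3 were lower, against 17.7% and 21.0% of all tested genes, and 18.6% and 25.6% of the protein-coding ones. At L1C 1 of 9 was higher and 2 were lower, against 15.8% and 18.2% of all genes and 16.0% and 22.4% of the protein-coding ones. At L2C 2 were higher and 4 lower, against 22.0% and 22.0% of all and 21.6% and 26.6% of protein-coding genes. The median log2 IP/input of these members was -0.14, -0.06 and -0.08 at the 3 stages, and that of all tested genes 0.00, 0.07 and 0.09. With thresholds taken from the study (log2 IP/input above 0, unadjusted p under 0.05, more than 1 count in each input) 2, 3 and 2 of them passed, against 19.5%, 18.9% and 24.3% of tested genes. The p-values here are those of the edgeR fit, while the study used DESeq2 and further steps, a limit for genes that DESeq2 gave no p and a requirement on replicates, which were not applied. IP values depend on how IP and input libraries are scaled: scaling to library size alone raised the median over all genes to 0.199 in MII, 0.367 in L1C and 0.340 in L2C libraries.

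**Figure D4:**
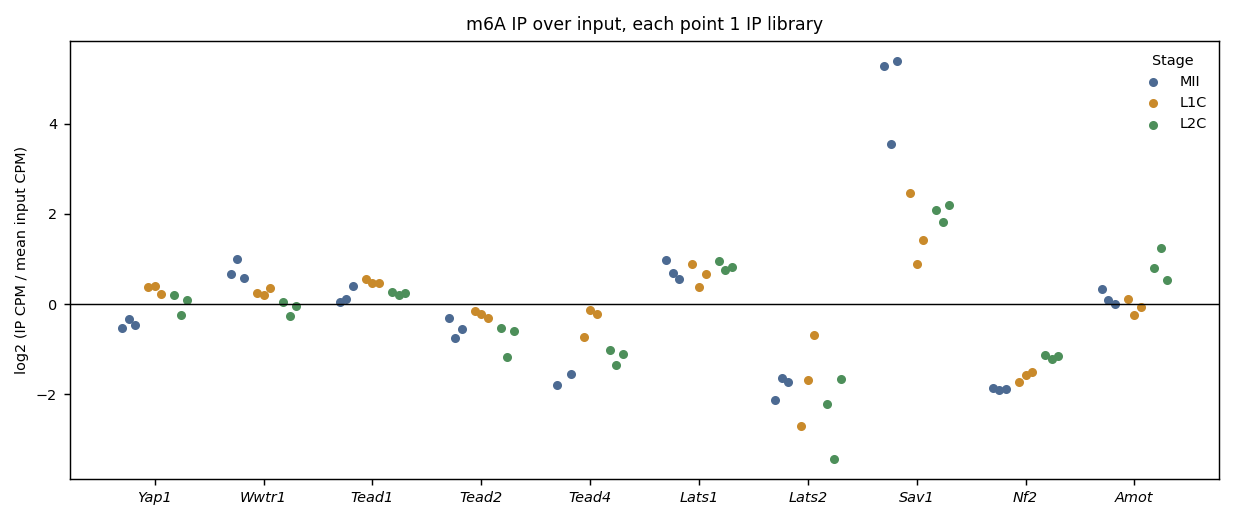
log2 of the CPM in 1 IP library over the mean CPM of the 3 inputs of its stage (y axis) for each member (x axis), colored by stage, with 1 point per IP library. Nf2, Lats2, Tead2 and the plotted points of Tead4 lie below 0 at all stages, and Lats1, Sav1 and Tead1 above it. The MII IP library in which Tead4 had 0 counts has no point.

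Nf2 was lower in the IP than in the input at every stage, as was Lats2 when counted without Gm49361. The log2 ratio of each Nf2 IP library to the mean input was -1.86, -1.90 and -1.88 in MII, -1.73, -1.58 and -1.51 in L1C and -1.12, -1.21 and -1.16 in L2C libraries. The fitted values were -1.88 ± 0.10 (SE, adjusted p = 7.7e-11), -1.60 ± 0.10 (adjusted p = 1.6e-09) and -1.16 ± 0.10 (adjusted p = 3.8e-08), so the depletion was smaller at L2C than at MII by 0.71 ± 0.14 (adjusted p = 0.0011).

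The Lats2 libraries were more scattered, at -2.12, -1.64 and -1.73 in MII, -2.71, -1.69 and -0.69 in L1C and -2.21, -3.43 and -1.66 in L2C libraries, on 2 to 73 estimated counts per IP library. The fitted values were -1.81 ± 0.36 (adjusted p = 0.00043), -1.42 ± 0.36 (adjusted p = 0.0046) and -2.13 ± 0.42 (adjusted p = 0.00046). The L1C value was -2.09 without L1C IP replicate 3. With Gm49361 added they were -1.68, -1.01 and -0.48, and the L2C depletion was no longer called (adjusted p = 0.089). On the summed counts the IP/input value was higher at L2C than at MII by 1.20 (adjusted p = 0.012), where Lats2 alone had given -0.32 ± 0.53.

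Its partner kinase Lats1 lay above the mean of its inputs in all 9 IP libraries, at log2 0.97, 0.69 and 0.56 in MII, 0.90, 0.37 and 0.67 in L1C and 0.96, 0.75 and 0.83 in L2C libraries. IP and input libraries overlapped at L1C. At L2C the difference was called (0.85 ± 0.27, adjusted p = 0.017), and it was not called without L2C input replicate 1 (0.81), L2C input replicate 2 (0.78) or L2C IP replicate 1 (0.79). At MII (0.76 ± 0.31, adjusted p = 0.058) and L1C (0.64 ± 0.30, adjusted p = 0.11) it was not called. It became called at MII without L1C input replicate 1 or 3 (0.76) and at L1C without L1C input replicate 1 (1.12). DESeq2 (0.82), library size scaling (0.99) and a fit of only the compared libraries (0.80) also called it at MII, and library size scaling at L1C (0.94).

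The coactivators changed in IP/input between stages. Yap1 was lower in the IP at MII, where its 3 IP libraries lay at -0.52, -0.32 and -0.47, and above 0 at L1C, where they lay at 0.38, 0.41 and 0.22. The fitted values were -0.43 ± 0.13 (adjusted p = 0.012) at MII, 0.34 ± 0.13 (adjusted p = 0.052) at L1C and 0.03 ± 0.13 (adjusted p = 0.86) at L2C, and the step from MII to L1C was 0.77 ± 0.18 (adjusted p = 0.012). The MII value was not called without MII input replicate 1 (-0.34) or MII IP replicate 1 (-0.39), and was -0.20 (adjusted p = 0.21) with library size scaling. The L1C value became called without MII input replicate 3, L2C IP replicate 2 (0.34 each) or L1C IP replicate 3 (0.39), with DESeq2 (0.38, adjusted p = 0.0072) and with library size scaling (0.64, adjusted p = 0.00038), and the difference of L2C from MII (0.47 ± 0.18, adjusted p = 0.078) without L2C IP replicate 2 (0.58).

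Wwtr1 moved in the other direction. Its IP libraries lay at 0.67, 1.00 and 0.59 in MII, 0.25, 0.20 and 0.35 in L1C and 0.05, -0.26 and -0.05 in L2C, so that no MII library overlapped with L1C or L2C. It was higher in the IP at MII (0.76 ± 0.19, adjusted p = 0.0037) and not called at L1C (0.27 ± 0.18, and called at 0.57 with library size scaling) or L2C (-0.08 ± 0.16). The value at L2C was lower than at MII by 0.84 on the log2 scale (-0.84 ± 0.25, adjusted p = 0.023). That difference was not called without MII input replicate 2 (-0.67, adjusted p = 0.072) or MII IP replicate 2 (-0.71, adjusted p = 0.069).

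The TEAD messages differed among themselves. At L2C Tead4 was lower in the IP, with 36.5, 28.9 and 34.1 CPM against 69.0, 78.7 and 73.7 in the inputs (-1.15 ± 0.21, adjusted p = 0.0002), and Tead2 was lower too, with 7.60, 4.85 and 7.29 CPM against 10.2, 12.9 and 9.73 (-0.72 ± 0.19, adjusted p = 0.0052). IP and input libraries did not overlap for either. With library size scaling the Tead2 value was -0.47 (adjusted p = 0.048). At MII Tead4 had 0, 1 and 1 counts in the IP, too few to compare, and Tead2 was not called (-0.52 ± 0.21, adjusted p = 0.053), though it was without MII input replicate 3 (-0.61), MII IP replicate 1 (-0.64) or L2C IP replicate 2 (-0.52).

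Tead1 was near or above its inputs, and called at L1C only (0.51 ± 0.19, adjusted p = 0.045). Of 18 fits that each left out 1 library, 13 lost that call, and it was kept without MII input replicate 3, L1C input replicate 3, L2C input replicate 2, MII IP replicate 3 or L2C IP replicate 2. Its lowest value was 0.33, without L1C input replicate 1. It was also not called without the low-count filter (adjusted p = 0.18) or with only the compared libraries (adjusted p = 0.10), while library size scaling called Tead1 at L2C as well (0.49, adjusted p = 0.021, against 0.24 here). Whether Tead1 differed from the other TEAD genes was not tested.

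Amot was at its input level at MII (0.15 ± 0.21) and L1C (-0.06 ± 0.20), and higher in the IP at L2C, with 2.24 to 3.70 CPM in the IP against 1.45 to 1.63 in the inputs (0.87 ± 0.22, adjusted p = 0.0038). The difference between L2C and L1C missed the threshold (0.92 ± 0.30, adjusted p = 0.059) and passed it without L1C input replicate 2 (1.03) or L2C IP replicate 3 (1.08). Likewise the difference of Nf2 between L2C and L1C (0.44 ± 0.14, adjusted p = 0.054) passed it without L1C input replicate 1 (0.51).

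Sav1 had more reads in IP than in input libraries at each stage, on few counts. The MII IPs held 12, 4 and 12 estimated counts and the MII inputs 1, 0 and 0, a ratio of 26.7 after scaling (exact 95% interval 4.41 to 1090, counting error only). The fitted log2 values were 4.46 ± 0.93 in MII, 1.68 ± 0.60 in L1C and 1.99 ± 0.59 in L2C libraries, and since it had passed the filter on low counts through its IP libraries they are given with no test. The MII value was 6.75 without MII input replicate 1, the sole MII input with a count. Reads of Atl1, Gm3086 or other antisense gene models on the shared bases cannot be told apart from those of Sav1 unless strand was used, which is not given in the sources used here for the SLIM-seq counts.

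Between stages, IP/input differed for 1 member from MII to L1C (7.33% of all tested genes), for 0 from L1C to L2C (9.47%) and for 2 from MII to L2C (20.3%). From L1C to L2C, 3 members had an unadjusted p under 0.05 in the edgeR fit (Amot, Tead4 and Nf2), and DESeq2 called 2 (Tead4 -0.89 and Nf2 0.39).

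The letters GGACT, the core in which m6A is most often found, were counted on the sense strand of the longest coding transcript of each member (GENCODE M21). The median over tested mRNAs was 1.05 per kb. Sav1 had the highest density (1.98 per kb, above 87.6% of tested mRNAs), followed by Tead2 (1.47) and Lats2 (1.16). The other members lay below the median, from 0.975 in Tead4 to 0.636 in Nf2. Whether these densities go with IP/input was not tested.

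Of the other pathway genes 8 were higher in the IP and 8 lower of 25 in MII, 8 and 10 of 26 in L1C, and 6 and 6 of 23 in L2C libraries, counting those with IP and input libraries at the minimum of the filter. Map4k4 (1.90 ± 0.17 at MII, adjusted p = 3.6e-08, and 1.12 ± 0.18 at L2C) and Taok1 (0.91 ± 0.16 at L1C and 1.03 ± 0.16 at L2C), kinases upstream of LATS, were higher in the IP, as were Birc5 (0.70 ± 0.12 at MII and 0.64 ± 0.12 at L1C) and Wwc2 (0.41 to 0.45 over the 3 stages). Limd1, a LIM protein (-2.63 ± 0.13 in MII, -2.30 ± 0.13 in L1C and -1.25 ± 0.13 in L2C libraries), and Taok2 (-2.08, -1.73 and -2.07, SE 0.17 each) were lower at every stage, alongside Taok3 at MII (-1.42 ± 0.12), Dlg5 at L1C (-1.48 ± 0.17) and Ptpn14 at L2C (-1.32 ± 0.18). The depletion of Limd1 was smaller at L2C than at MII by 1.38 ± 0.18 (adjusted p = 2.2e-05), the same direction as in Nf2. IP/input of Dlg5 (1.20 ± 0.23) and Taok3 (0.61 ± 0.17) was also higher at L2C than at MII, and that of Mob1a (-0.61 ± 0.17) and Map4k4 (-0.77 ± 0.24) lower. Amotl1 fell in IP/input from MII to L1C (-1.80 ± 0.26, adjusted p = 0.00016) with Map4k4 (-1.34 ± 0.23), and rose again to L2C (1.46 ± 0.29) with Limd1 (1.05 ± 0.18) and Fat1 (0.66 ± 0.16), whereas Mob1a (-0.64 ± 0.17) and Frmd6 (-1.50 ± 0.44) fell.

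In the knockdown experiment Ythdc1 itself was at 519 to 541 CPM in KD and 994 to 1100 CPM in Ctrl libraries, a fall of 1.00 ± 0.06 on the log2 scale (adjusted p = 1.3e-10). The deposited merged table of all 6 libraries holds 25739 genes, among them 4 members (Wwtr1, Tead2, Tead4 and Amot). The other 6 were read from the whole-annotation counts of 5 libraries, 2 KD and 3 Ctrl, because the counts of KD replicate 3 used here cover the same 25739 genes as the merged table. CPM are within each table, so levels are not comparable between the tables. Among the members of the merged table, 2 rose and 2 fell, against 33.5% and 37.4% of the 7433 genes tested there. Of the other 6, Sav1 did not pass the filter on low counts, and Lats2 passed it through its Ctrl libraries alone and is described by its counts. Of the 4 that remain 1 rose, 1 fell and 2 were not called, against 30.5% and 36.4% of 17074 tested genes. Most tested genes thus differed between KD and Ctrl, and the directions differed within the pathway.

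**Figure D5:**
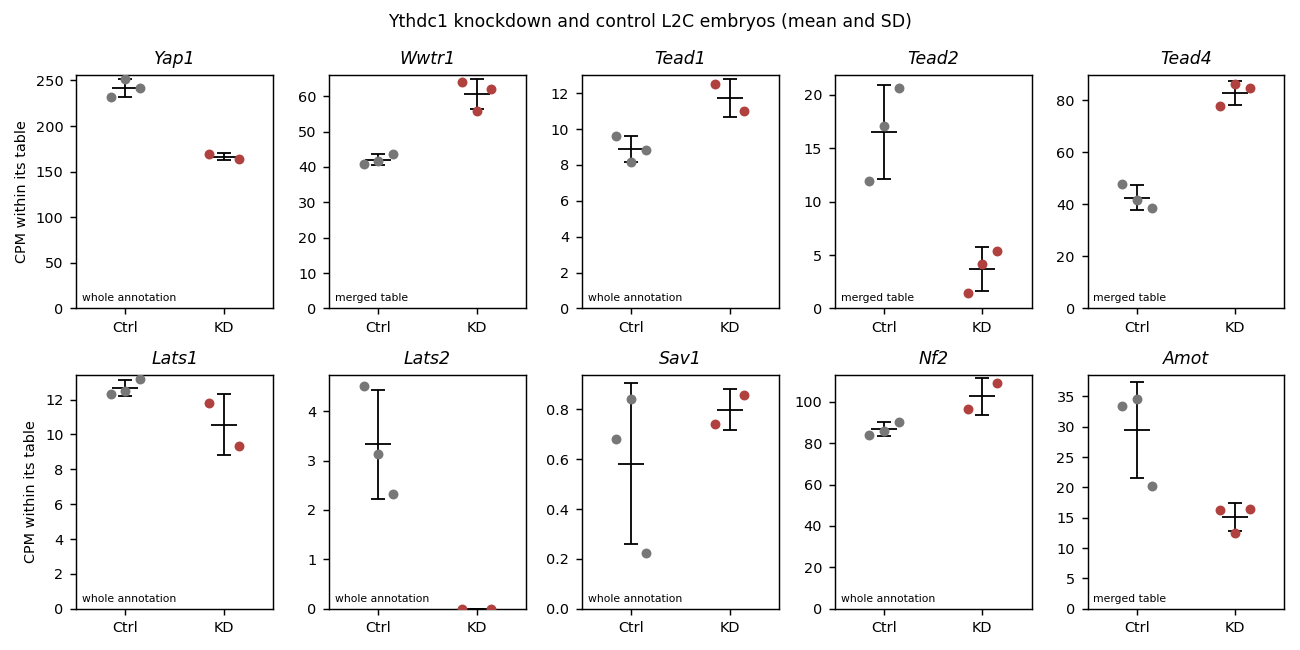
CPM (y axis, from 0) of each member in Ctrl and Ythdc1 KD embryos (x axis), within the table named in each panel. Points are libraries and bars show mean and SD (n = 3, or n = 2 for KD in whole-annotation panels). Tead2, Yap1, Amot and Lats2 lie lower in KD, and Tead4 and Wwtr1 higher.

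Tead4 and Tead2 moved in opposite directions. Tead4 was at 77.7, 86.3 and 84.6 CPM in KD and 47.7, 41.6 and 38.5 in Ctrl, a rise of 0.95 ± 0.11 (SE, adjusted p = 6.1e-07). Tead2 was at 1.43, 4.17 and 5.42 CPM in KD (6, 15 and 28 counts) and 11.9, 17.1 and 20.6 in Ctrl, a fall of 2.12 ± 0.35 on the log2 scale, or 4.33-fold (adjusted p = 2.6e-05). KD and Ctrl libraries did not overlap for either gene. Tead1 was at 12.5 and 11.0 CPM in KD and 9.64, 8.19 and 8.86 in Ctrl, above Ctrl but not called (0.40 ± 0.18, adjusted p = 0.055). Per kb of exon the share of Tead4 in the 3 TEAD messages was 88.9% and 89.0% in the KD libraries and 69.6% ± 5.67 in Ctrl, and that of Tead2 2.23% ± 1.41 (n = 2) and 20.4% ± 5.86.

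The coactivators also parted. Yap1 fell, from 232, 252 and 242 CPM in Ctrl to 169 and 164 in KD (-0.54 ± 0.08, adjusted p = 2.8e-05). Wwtr1 rose, from 40.8, 41.8 and 43.7 CPM to 64.1, 55.9 and 62.0 (0.53 ± 0.11, adjusted p = 0.00038). All KD libraries lay on 1 side of all Ctrl libraries for both.

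Of the kinases, Lats2 had 66, 41 and 21 counts in Ctrl and 0 in both KD libraries. Taking 3 counts per library as the floor, it was at least 11.1-fold lower in KD, given with no test. Gm49361 held 0 counts in all 5 libraries. How reads on the exon bases shared by Lats2 and Gm49361 were assigned was not examined, so the counts of both may leave those bases out. Of the 17074 tested genes 184 (1.08%) had 0 counts in both KD libraries with 20 or more in every Ctrl library, and 71 (0.416%) the reverse. Lats1 was at 11.8 and 9.31 CPM in KD and 12.3, 12.5 and 13.2 in Ctrl, below Ctrl but not called (-0.25 ± 0.17, adjusted p = 0.20).

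Among the upstream members, Amot was at 33.4, 34.5 and 20.3 CPM in Ctrl and 16.3, 12.5 and 16.5 in KD libraries. It fell from 29.4 ± 7.90 to 15.1 ± 2.25 CPM (SD, n = 3), without overlap (-0.97 ± 0.20, adjusted p = 0.00026). Nf2 was at 96.3 and 109 CPM in KD and 84.0, 85.9 and 90.4 in Ctrl, a change of 0.24 ± 0.09 (adjusted p = 0.030). That call was lost without KD replicate 2 (0.16), which leaves 1 KD library assumed to vary like the Ctrl libraries, without Ctrl replicate 1 (0.22) or 2 (0.23), with library size scaling (0.17) and without the low-count filter (0.22). Sav1 was at 0.740 and 0.856 CPM in KD and 0.222 to 0.842 in Ctrl, and was not tested.

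With thresholds taken from the study for changed genes (unadjusted p under 0.05 and a log2 fold change beyond 1 either way), here on the edgeR fit, Tead2 was lower. Lats2 is left out here, since it was at 0 in KD and had passed the filter through Ctrl. Amot missed them in the merged table (-0.97 ± 0.20) and passed them in the whole annotation with 2 KD libraries (-1.03 ± 0.25). Of all tested genes 22.5% were lower by these thresholds in the merged table and 24.5% in the whole annotation.

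The other pathway genes were fewer here, with 9 tested in the merged table (4 higher and 1 lower of the 8 beside Vgll1) and 21 in the whole annotation (5 higher and 4 lower of the 19 beside Vgll1 and Amotl1, which reached the minimum of the filter in Ctrl alone). Vgll1, which encodes a TEAD partner of the trophoblast, had 0 counts in all 3 KD libraries and 7.81 to 10.4 CPM in Ctrl, at least 13.0-fold lower (3 counts per library as the floor). It passed the filter on low counts through its Ctrl libraries, so no test is given. Taok3 fell (-1.09 ± 0.14, adjusted p = 1.5e-06). Gata3 rose from 6.58 ± 2.88 to 17.4 ± 3.08 CPM (1.36 ± 0.28, adjusted p = 0.00027), as did Stk4 (0.35 ± 0.08) and Mob1b (0.25 ± 0.09). In the whole annotation Ajuba rose from 16.4 ± 2.34 to 34.0 ± 1.48 CPM (1.06 ± 0.13, adjusted p = 4.6e-06), and Wwc2 fell (-0.61 ± 0.08, adjusted p = 5.2e-06).

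Marker levels also differed between KD and Ctrl. The 6 transcripts of the 2-cell embryo summed to 253 to 288 CPM in KD and 819 to 874 in Ctrl, the 6 oocyte transcripts to 332 to 344 and 551 to 574, and the 8 cumulus markers to 7.92 to 9.89 and 8.47 to 11.3 (whole annotation). Lower levels in KD were called for Zscan4c (-2.39 ± 0.11), Zscan4d (-1.79 ± 0.11), Zfp352 (-1.97 ± 0.09), Tcstv1 (-1.52 ± 0.12), Tcstv3 (-1.04 ± 0.09), Gdf9 (-1.26 ± 0.10), Bmp15 (-1.14 ± 0.09) and Zp2 (-0.46 ± 0.11), and a higher level for Zp3 (0.50 ± 0.10). The cumulus sums were mostly Tnfaip6 (8.62 ± 1.15 CPM in KD and 7.58 ± 1.58 in Ctrl, not called), while Cyp19a1 had 0 and 2 counts in KD and 12 to 29 in Ctrl. The part of these differences in the results for the pathway genes was not tested.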

How the data were processed

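SLIM-seq reads were trimmed with Trimmomatic and quantified with kallisto by the authors against whole gene spans, introns included, and the deposited values are estimated counts and TPM per gene (GRCm38). For the knockdown, the deposited counts are exon reads per gene from HISAT2 alignments and featureCounts 2.0.1 (Ensembl annotation 99), counted without strand per the file headers. Totals were 11107421 to 39739950 per SLIM-seq library, 3276715 to 5463868 in the merged knockdown table and 8696476 to 14500548 over the whole annotation. The merged table holds 37.5% to 39.0% of a library's counts. Counts limit the precision of low genes, and intervals and floors (3 counts) cover counting error only.

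Estimated counts were rounded, filtered with filterByExpr, scaled by TMM and tested with the quasi-likelihood test of edgeR 4.0.16 (R 4.3.3), with Benjamini-Hochberg adjustment over all tested genes. SE is the log2 change divided by the square root of F. Inputs were fitted alone, IP and input in 1 fit of 18 libraries with their interaction with stage, and each knockdown table alone. Ratios between genes were compared by two-sided exact permutation. The code was tested on simulated data. Alternatives were DESeq2 1.42.0, library size scaling, no filter, a stricter threshold, a replicate block, other fits, other scales, leaving out each library, and, chosen after seeing the data, Lats2 with Gm49361 added. Positions, exon lengths and transcripts are from GENCODE M21 and promoters from RefSeq. All members are named, and of the other pathway genes up to 3 higher and 3 lower with the smallest adjusted p per comparison. Some further pathway genes (Vgll1, Amotl1, and the repeats of a gene across comparisons) and markers were named after their values were seen. Members and lists were chosen with earlier results of these data known. Fold change columns of the authors were not used.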

Additional observations from a re-analysis of the deposited data

Results flagged for a closer look

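The log2 IP/input value of 3 members differed between stages by a test of the difference itself (edgeR interaction term, adjusted over 21950 genes). Yap1 was higher at L1C than at MII by 0.77 ± 0.18 (adjusted p = 0.012), with all 3 IP libraries below 0 at MII and above 0 at L1C. Wwtr1 differed by -0.84 ± 0.25 between L2C and MII (adjusted p = 0.023), a call that was lost without MII input replicate 2 (-0.67) or MII IP replicate 2 (-0.71). Nf2 differed by 0.71 ± 0.14 between L2C and MII (adjusted p = 0.0011), while it stayed below its inputs in every IP library. The background was 7.33% of tested genes for L1C against MII and 20.3% for L2C against MII.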

How the results depend on the processing

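Counts of members past the threshold moved by more than 1.5 times as follows. These counts take in Sav1 and Tead4 in the IP and Lats2 in the knockdown. The thresholds of the study for tagged genes count higher members only, and gave 2 at MII and 3 at L2C in the IP, as many as the higher members among the 5 and 7 called either way (at MII with Lats1 in place of Sav1). Those for changed genes gave 2 in the knockdown, against 7, Lats2 included in both. At L1C in the IP the count was 4, and 2 at an adjusted p under 0.01, without the low-count filter or with only the compared libraries, 7 with library size scaling, and 2 to 5 with 1 library left out. The count of members whose IP/input differed between L1C and MII went from 1 to 0, and between L2C and MII from 2 to 1, at an adjusted p under 0.01. With 1 library left out the latter ran from 1 to 3. Between L2C and L1C it was 0, 2 with DESeq2, and 0 to 1 with 1 library left out.

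With 0.1 or 1 added to TPM the log2 ratios between L2C and MII shrank to 2.99 and 1.41 for Wwtr1 to Yap1, -2.31 and -0.74 for Lats2 to Lats1, -4.00 and -2.20 for Tead1 to Tead4, and -4.84 and -2.09 for Tead2 to Tead4. With nothing added the log2 ratio of Tead1 to Tead4 differed by -5.98 (-6.62 to -5.11 with 1 library left out) and that of Tead2 to Tead4 by -7.97. Per kb of exon, with nothing added, that of Lats2 to Lats1 was -1.74 once Gm49361 was added to Lats2, and Tead4 made up 3.84%, 26.8% and 86.2% of the TEAD messages at MII, L1C and L2C.

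Signs turned, all but 1 in values that were not called, for Lats2 with Gm49361 added (0.02 in the inputs between L2C and L1C, 0.53 and 1.20 in IP/input between L2C and L1C or MII), for Amot (0.25) and Tead2 (0.08) at L1C and Wwtr1 (0.18) at L2C in the IP with library size scaling, and for Yap1 at L2C in the IP without the filter or with only the compared libraries (-0.01 each). In IP/input between L2C and MII they turned for Tead1 (-0.02 with DESeq2, -0.11 with only the compared libraries) and Lats1 (-0.07 with only the compared libraries). With 1 library left out, ranges that crossed 0 were -0.39 to 0.40 for Lats1 between L1C and MII inputs, -0.18 to 0.07 for Amot at L1C, -0.15 to 0.00 for Wwtr1 and -0.07 to 0.15 for Yap1 at L2C in the IP. In IP/input between stages they were, for Lats1, -0.45 to 0.37 (L1C against MII), -0.28 to 0.53 (L2C against L1C) and -0.01 to 0.21 (L2C against MII), -0.28 to 0.70 for Lats2 (L1C against MII) and -0.06 to 0.15 for Tead1 (L2C against MII). The cause was not tested. Beside these, 649 values under other settings and 1317 with 1 library left out kept direction and side of the threshold, while 10 and 13 gained a call and 17 and 30 lost it.

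Same-numbered libraries deviated from their group means with correlations of -0.154 to 0.133, of either sign, and the labels tie no number to a batch, so the numbers were not taken to pair the samples. The study states that input RNA came from the batches used for IP, and such sharing may be missed by this check. With a replicate block the counts of members were unchanged except at L1C in the IP (3, against 4), where the difference is Sav1 (1.58). Depth limits Sav1 and, at MII, Tead4, which had at most 6 and 4 counts in an input library.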
